A study of Mus musculus with 33 samples.

Results

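The epithelium of the proximal colon was compared with that of the cecum in the same mice, with the RNA of all sequenced cells of a library added together. All cecum and proximal colon libraries of the series were members, which gave 22 of its 33 libraries and 17947 of its 23762 cells, from 11 female wild-type mice of strain C57BL6/J. The 5 young mice were 8 to 20 weeks old and the 6 old mice 90 to 108 weeks. Every mouse gave 1 library of each compartment, and the labels name no transgene and no treatment. Crypts, the glands that line the large intestine, were taken apart to single cells, sorted for the epithelial surface protein EpCAM and read with droplet-based 10x 3′ sequencing. The isolation of crypts and the sort limit what the libraries hold: surface cells outside crypts and the tissue below the epithelium were not targets.

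Libraries held between 18 and 3403 cells. A pair entered the test where both its libraries had at least 50 cells, which left 7 mice: Young 3, Young 4, Young 5, Old 2, Old 4, Old 5 and Old 6, with 9543 cecum and 7651 proximal cells and 6534317 to 18955289 unique molecular identifiers (UMIs, each standing for 1 captured transcript) per library. The 4 mice left out were Young 1, Young 2, Old 1 and Old 3. No cell barcode was shared between the cecum and proximal library of a mouse, and 132 barcodes occurred in more than 1 of the 22 libraries. Levels are given as CPM, the UMIs of a gene per 1000000 UMIs of its library, and are compared between compartments, not between genes. Epcam itself was at 2089 ± 286 CPM in the cecum against 2183 ± 356 in the proximal colon (SD, n = 7 for each), a difference of 0.01 ± 0.03 (SE) on the log2 scale with an adjusted p of 0.78. Its 2 ranges overlapped almost wholly, 1550 to 2413 against 1640 to 2726.

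The cecum is the blind pouch at the start of the large intestine in which microbes ferment plant fibre, and the proximal colon follows directly behind it. In both, stem cells at the crypt base give rise to absorptive colonocytes, which take up salt, water and short-chain fatty acids, and to mucus-producing goblet cells, hormone-producing enteroendocrine cells and tuft cells. Position along the gut is carried in the epithelium by homeobox transcription factors, among them CDX1, CDX2 and the HOX family, whose members further along each gene cluster are typically active nearer the tail end.

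The promoters of the genes that led each direction of the comparison, Plet1 (higher in the proximal colon) and Slc37a2 (higher in the cecum), are printed so that the differences below can be set beside the DNA next to the genes. Both are the 250 bases before the transcription start in RefSeq's GRCm38.p6, read 5′ to 3′ on the strand of the gene: chr9:50494275-50494524, plus strand, for Plet1, and chr9:37255739-37255988, minus strand, for Slc37a2.
Plet1: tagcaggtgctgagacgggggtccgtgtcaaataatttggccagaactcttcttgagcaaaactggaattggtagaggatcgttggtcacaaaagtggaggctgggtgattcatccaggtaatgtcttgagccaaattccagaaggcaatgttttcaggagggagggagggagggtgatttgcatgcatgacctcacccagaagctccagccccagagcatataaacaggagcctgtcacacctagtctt
Slc37a2: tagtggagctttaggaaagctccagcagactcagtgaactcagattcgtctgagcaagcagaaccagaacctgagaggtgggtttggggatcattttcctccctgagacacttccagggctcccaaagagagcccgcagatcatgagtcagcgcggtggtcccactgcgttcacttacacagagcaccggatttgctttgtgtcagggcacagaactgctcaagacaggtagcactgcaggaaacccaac
Neither window, nor those of Ldhb and Gal3st2c, held the letters TTTATG (a CDX2 type motif), CTCGTAAA or CCAATAAA (HOX13 type motifs) on either strand, so nothing is set in capitals. Of all 32851 windows of this length, 10.8% held the first, 0.11% the second and 1.02% the last.

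Several libraries stood apart. The proximal library of Young 5 had the highest level of the 7 proximal libraries for 11 of the 12 genes that were most strongly lower in the proximal colon, and Old 2 supplied 8 of the 11 single-mouse values that lay far from those of the other mice. Young 3 and Old 2 were the 2 pairs with many UMIs per cell. Proximal cells held fewer UMIs than cecum cells: the median per cell ran from 4401 to 32671 in the cecum (middle library 11506) and from 3608 to 28730 in the proximal colon (middle library 9160.5), with a mean paired difference of -2818 ± 682 that was negative in 7 of 7 pairs (SE; two-sided exact sign-flip p = 0.015625, the smallest that 7 pairs allow, adjusted p = 0.0208 over 4 measures). Median genes per cell were lower in 7 of 7 pairs too, with a mean difference of -309.6 ± 45.2, and the median share of UMIs from mitochondrially encoded genes was higher in 7 of 7, by 0.825 ± 0.225 percentage points, each with the same exact p. For cell numbers the mean difference was -270.3 ± 173 (exact p = 0.1875). The part of these measures in the gene differences below was not tested.

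Across the epithelium as a whole, the 2 neighbouring compartments differed at 3533 of 11812 genes tested (29.9%; edgeR's quasi-likelihood test with the mouse as a block, Benjamini-Hochberg adjusted p below 0.05). In the proximal colon 1764 genes (14.9%) were higher and 1769 (15%) lower, and 2542 of the called genes (21.5% of those tested) moved the same way in all 7 pairs. With libraries scaled by total UMIs alone the split became 2197 higher and 1195 lower, or 64.8% higher against 49.9%. Differences of more than 2-fold were found for 308 higher and 159 lower genes. In sums over all cells, fewer cells of a type and less RNA per cell cannot be told apart.

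**Figure D1:**
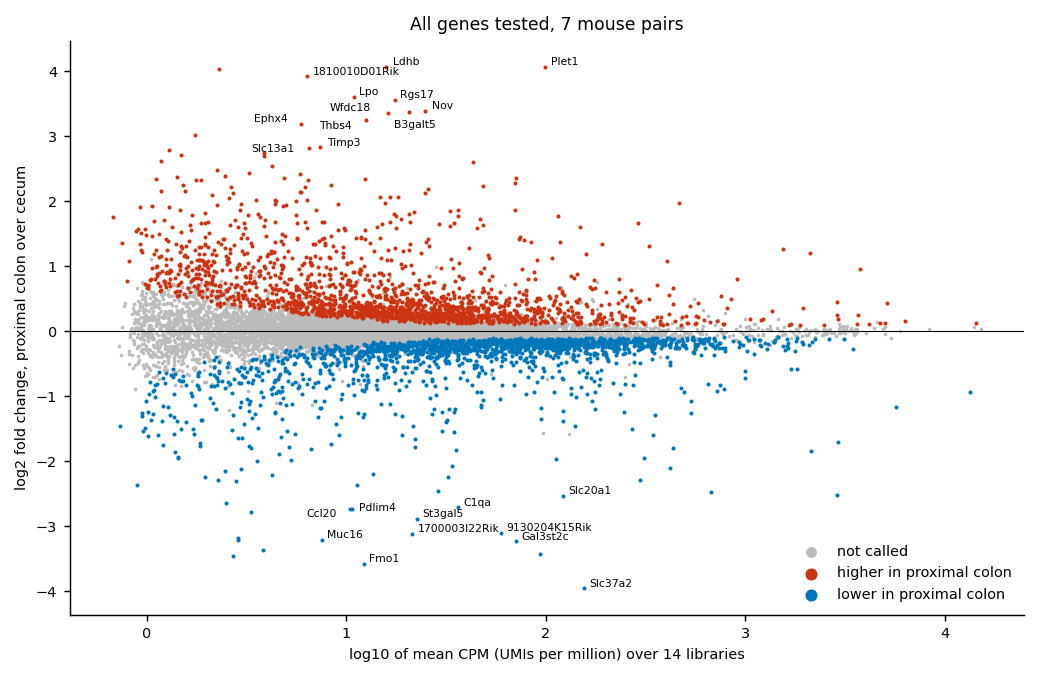
Log2 fold change of each of the 11812 genes tested (proximal colon over cecum, vertical axis) against the log10 of its mean CPM over 14 libraries (horizontal axis). Red points are the 1764 genes higher and blue points the 1769 lower at an adjusted p below 0.05, and the 23 labelled genes are leading ones, from Plet1 at 4.07 to Slc37a2 at -3.96.

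The 12 genes that were most strongly higher in the proximal colon were, in order, Plet1, Ldhb, 1810010D01Rik, Lpo, Rgs17, Nov, B3galt5, Wfdc18, Thbs4, Ephx4, Timp3 and Slc13a1, with log2 differences from 4.07 to 2.81. They were picked by the size of this same difference, so the sizes are the extremes of these 7 pairs.

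Plet1, a cell-surface protein of epithelia and placenta (chr9:50494525-50505482), had a level of 1.37 CPM in the lowest cecum library, 7.83 in the median one and 44.6 in the highest, and of 14.5, 207 and 357 in the proximal ones. The 2 groups overlapped only through the cecum of Old 5, at 44.6, and the proximal colon of Old 2, at 14.5, yet every mouse was higher in its proximal colon. The difference was 4.07 ± 0.25 (SE) with an adjusted p of 4e-06. An antisense gene, Plet1os, overlaps it and was at most 1.96 CPM in any of the 14 libraries. Slc37a2 and Timp3 below also share their spans with genes on the other strand (Gm10177 and Syn3), and whether reads were counted by strand is not given in the sources used here.

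Ldhb, which encodes the heart-type subunit of lactate dehydrogenase, was at 0.592, 1.22 and 4.88 CPM in the lowest, median and highest cecum library and at 13.7, 33.2 and 36.7 in the proximal ones. All 7 proximal libraries therefore lay above all 7 cecum libraries, and the log2 difference was 4.06 ± 0.24 (adjusted p = 3.2e-06). Lpo encodes lactoperoxidase, an antimicrobial enzyme of secretions. Its means were 1.67 ± 2.38 and 20.1 ± 5.70 (SD, n = 7), a log2 difference of 3.60 ± 0.41. The cecum of Old 2, at 7.02, was the highest of its group, and the pair from that mouse gave 1.37 where the other pairs gave 3.85 to 5.24.

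Rgs17, a brake on G-protein signalling, averaged 2.49 ± 1.30 in the cecum against 32.6 ± 10.8 in the proximal colon. Nov, a secreted matricellular protein listed in RefSeq as Ccn3, went from 3.79 ± 1.86 to 45.8 ± 38.0. B3galt5, which adds galactose to glycan chains on proteins and lipids, went from 3.51 ± 1.39 to 37.7 ± 13.0. In none of the 3 did the ranges of the compartments meet. Slc13a1, a sodium-sulfate carrier of absorptive epithelia, was at 1.61 ± 0.728 and 11.4 ± 2.33, again with no overlap (log2 difference 2.81 ± 0.16).

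Of the 12 leading genes, 9 had every proximal library above every cecum library, a pattern seen in 1.19% of all genes tested. The exceptions were Plet1, 1810010D01Rik and Timp3, an inhibitor of matrix metalloproteinases. The 12 were picked on these libraries for a large difference of the same sign in every pair, so this count is a description. In the distal colon of the same 7 mice, 6 of the 12 had a still higher mean level (Nov, B3galt5, Wfdc18, Ephx4, Timp3 and Thbs4). Nov was at 167 CPM there and Thbs4 at 105. Proximal and distal means were close for Wfdc18 (29.5 and 32.7), Ephx4 (10.8 and 12.2) and Timp3. The distal level of Wfdc18 was above the proximal one only in Young 3, Young 4, Young 5 and Old 2. For Ephx4 this held only in Young 4, Young 5, Old 4 and Old 6, and for Timp3 only in Young 5, Old 5 and Old 6. The other 6 had a distal mean between the cecal and the proximal one, such as 49.2 for Plet1 and 3.34 for Lpo.

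**Figure D2:**
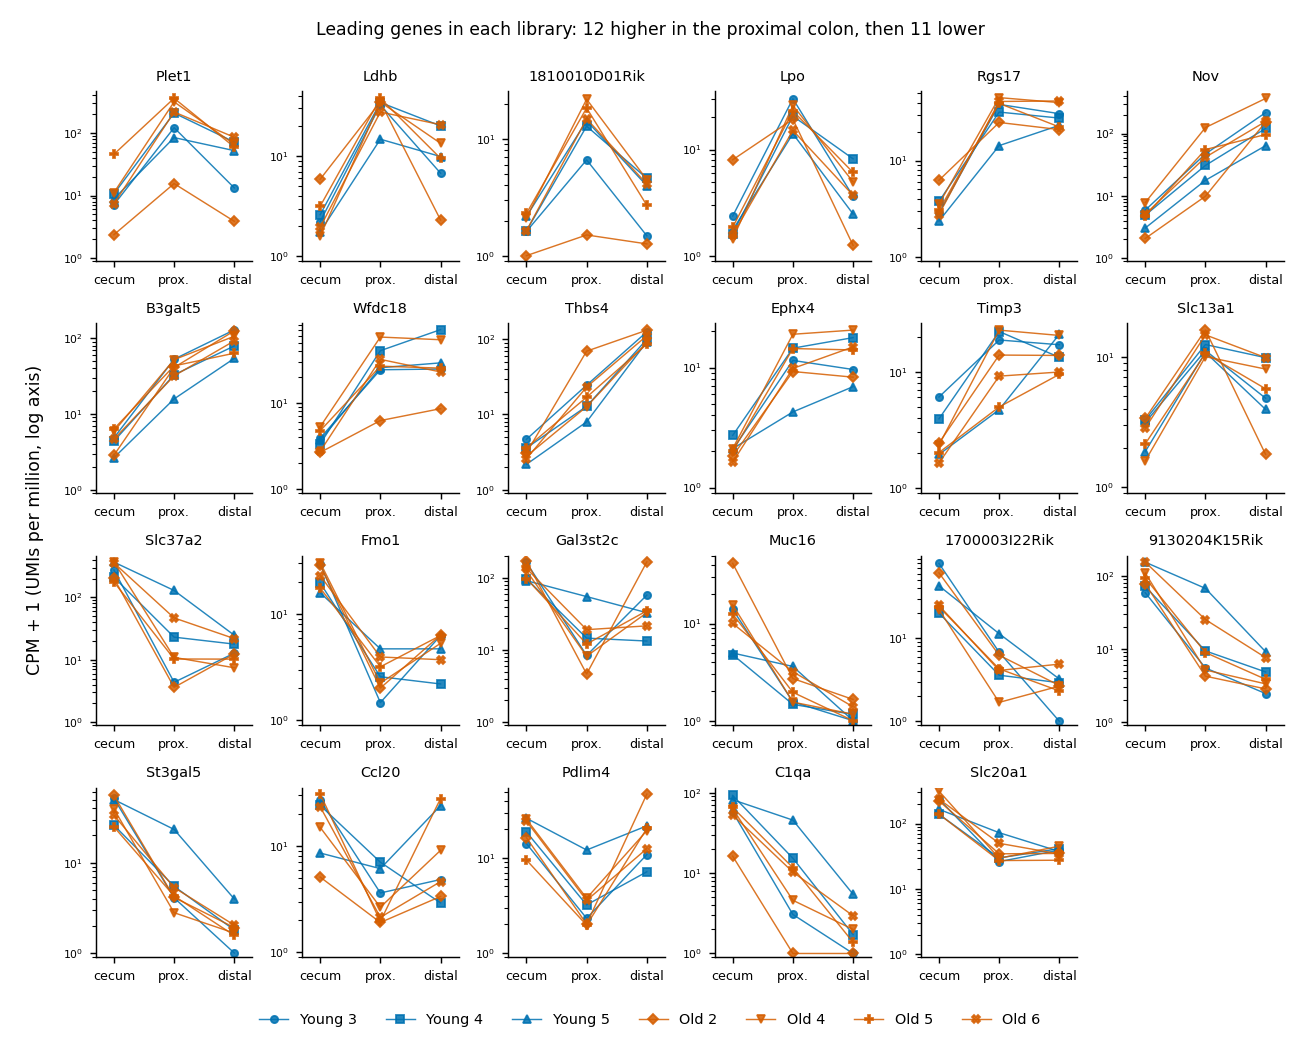
CPM + 1 (log axis) of 12 leading higher and 11 leading lower genes in the cecum, proximal and distal library of each of the 7 mice, with a line joining the libraries of a mouse (blue, young; orange, old). From cecum to proximal colon every line rises in the first 12 panels and falls in the next 11, where the highest proximal point is that of Young 5 in every panel but that of Ccl20.

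In the opposite direction, the 12 genes most strongly lower in the proximal colon included Slc37a2, Fmo1, Gal3st2c, Muc16, 1700003I22Rik, 9130204K15Rik, St3gal5, Ccl20, Pdlim4, C1qa and Slc20a1, with log2 differences from -3.96 to -2.53. Slc37a2, a sugar-phosphate exchanger of the endoplasmic reticulum (chr9:37227585-37255738), was at 175, 273 and 370 CPM in the lowest, median and highest cecum library and at 2.62, 9.94 and 128 in the proximal ones. No proximal library reached the lowest cecum library, though Young 5 came closest at 128. The log2 difference was -3.96 ± 0.52 (adjusted p = 0.00025), and the 2 pairs with many UMIs per cell alone gave -6.32.

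Fmo1, a flavin-containing monooxygenase that oxidizes drugs and other foreign compounds, was at 22.6 ± 6.09 in the cecum against 1.88 ± 1.14 in the proximal colon (log2 difference -3.59 ± 0.30). Slc20a1, a phosphate carrier, fell from 206 ± 63.7 to 37.4 ± 17.0. St3gal5, the enzyme that makes the ganglioside GM3, went from 39.2 ± 12.5 to 6.06 ± 7.23. Muc16 encodes a very large membrane mucin and went from 13.8 ± 12.6 to 1.29 ± 0.876. None of these 4 overlapped between compartments.

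Gal3st2c, a galactose sulfotransferase of mucin-type chains, was at 126 ± 32.6 and 16.4 ± 17.3. It has near-identical gene copies, so its reads may be shared with them. Ccl20, the chemokine that draws lymphocytes and dendritic cells to the epithelium through the receptor CCR6, went from 18.2 ± 9.73 to 2.63 ± 2.11, and its groups overlapped.

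C1qa, the A chain of complement component C1q, was at 60.3 ± 24.2 in the cecum against 12.1 ± 15.2 in the proximal colon (log2 difference -2.71 ± 0.39). It is usually a gene of macrophages, where it is made with the B and C chains. Here C1qb was at most 0.0528 CPM in the cecum and 0 in the proximal libraries, C1qc was 0 in all 14, and Csf1r, the receptor that defines macrophages, was at most 0.151. C1qb, C1qc and Csf1r were thus at or near 0 in both compartments. Cd68, another myeloid gene, had medians of 0.888 CPM in the cecum and 0.552 in the proximal colon, with highest values of 2.16 and 0.906. Further myeloid markers are given below, with the cells from outside the epithelium. In goblet-like cells, described further on, C1qa was lower as well, by -2.53 ± 0.34.

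Of these 12, 8 had every proximal library below every cecum library, against 0.745% of all genes tested. Pdlim4, 9130204K15Rik, Ccl20 and C1qa overlapped. These 12 too were picked on the same libraries by size and a shared sign, so the count is a description. Mean distal levels were the lowest of the 3 compartments for 8 of the 12, such as Slc37a2 at 14.3, and in between for 3. Slc20a1, among the 8, had close distal and proximal means, 36.0 and 37.4. For Pdlim4 the distal mean was the highest, but close to the cecum mean (18.9 ± 13.1 and 18.3 ± 6.38, SD). Its distal level was above the cecum level only in Old 2 (46.0 against 15.3) and Old 5.

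The 4 mice that did not enter the test gave a separate look at the same genes, at 18 to 233 cells per library. The 12 genes called most strongly higher were higher in the proximal library in 12 of 12 cases in Young 1, 10 in Young 2, 9 in Old 1 and 11 in Old 3. Of the 12 on the cecum side, 11, 12, 11 and 12 were lower. Ccl20 was the exception in both Young 1 and Old 1. Among all called genes the shares with the same direction were smaller, from 64.4% to 79.2% for the higher and from 69.1% to 82.9% for the lower genes.

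Among 50 genes of anterior-posterior patterning, 31 could be tested, of which 8 were higher and 8 lower in the proximal colon and 15 were not called. The share called was 51.6%, beside 29.9% of all genes tested, and without Old 6 5 were called each way. Their median log2 difference of 0.01 was close to that of all genes (3e-04). The called HOX members of the higher side were Hoxa13, Hoxb13 and Hoxd8, and of the lower side Hoxb2, Hoxa9, Hoxa10, Hoxa5, Hoxa7 and Hoxb4.

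Hoxa13, the last gene of its cluster (chr6:52257694-52260880), averaged 0.824 ± 0.339 CPM in the cecum against 6.87 ± 8.58 in the proximal colon, and 17.8 in the distal colon. Its proximal libraries ran from 1.93 through a median of 2.91 to 25.1, all above the highest cecum value of 1.30. The log2 difference of 2.75 ± 0.49 was uneven over mice: it was 4.91 in the 2 pairs with many UMIs per cell, 1.61 in the other 5 and 1.90 without Old 2. Hoxb13 followed the same order, from 5.64 to 19.1 to 390 in the distal colon. Its difference of 1.55 ± 0.46 (adjusted p = 0.027) was 0.96 without Old 2, and without Old 6 the adjusted p became 0.0674.

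Hoxb2 lies at the other end of its cluster and showed the reverse order, with 13.7 ± 3.73 in the cecum, 4.73 ± 1.73 in the proximal colon and 0.224 in the distal colon, and no overlap between the first 2 compartments (log2 difference -1.60 ± 0.15, adjusted p = 3e-05). Hoxa9 and Hoxa10 were lowest in the proximal colon. Hoxa9 was at 41.0 ± 4.69, 19.7 ± 13.6 and 39.0 from cecum to distal colon, and Hoxa10 at 34.7 ± 4.10, 18.1 ± 8.68 and 40.8. Each was lower in 6 of 7 mice, by -1.25 ± 0.24 and -1.03 ± 0.23, but in the 2 pairs with many UMIs per cell the values were -0.26 (adjusted p = 0.37) and -0.08 (adjusted p = 0.81).

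Osr2, a zinc finger factor of embryonic patterning, peaked in the proximal colon, with 16.1 ± 4.17 in the cecum, 80.5 ± 28.2 there and 3.00 in the distal colon. Its lowest proximal library, at 36.6, lay above its highest cecum library, at 22.4, and the log2 difference was 2.23 ± 0.22 (1.24 in the 2 pairs with many UMIs per cell). Cdx2, which encodes the main factor of intestinal identity, fell by a small amount, 0.23 ± 0.05, in 7 of 7 mice, from 341 ± 31.7 to 302 ± 35.2. Single mice ran from -0.46 to -0.08. By edgeR Cdx2 was not called in the young pairs alone (-0.15, adjusted p = 0.16) or without the mouse as a block (adjusted p = 0.14). Hnf4g rose by 0.23 ± 0.05, Gata6 by 0.20 ± 0.05 and Cdx1 by 0.14 ± 0.05. EdgeR did not call Hnf4g in the young pairs alone (adjusted p = 0.099), the old pairs alone (0.097) or without the block (0.50). Hoxd8 was likewise not called in the young pairs (adjusted p = 0.18), the old pairs (0.0505) or without the block (0.081). Hoxa5, Hoxa7, Hoxb4 and Cdx1 had adjusted p between 0.024 and 0.040 and lost the call when 1 mouse was left out: Hoxa5 without any mouse but Old 2, Hoxa7 without Young 3, Young 4, Young 5 or Old 6, Hoxb4 without Young 3, Young 4, Old 2 or Old 6, and Cdx1 without any mouse but Young 5. Gata6 lost it without Old 6 (adjusted p = 0.0503).

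**Figure D3:**
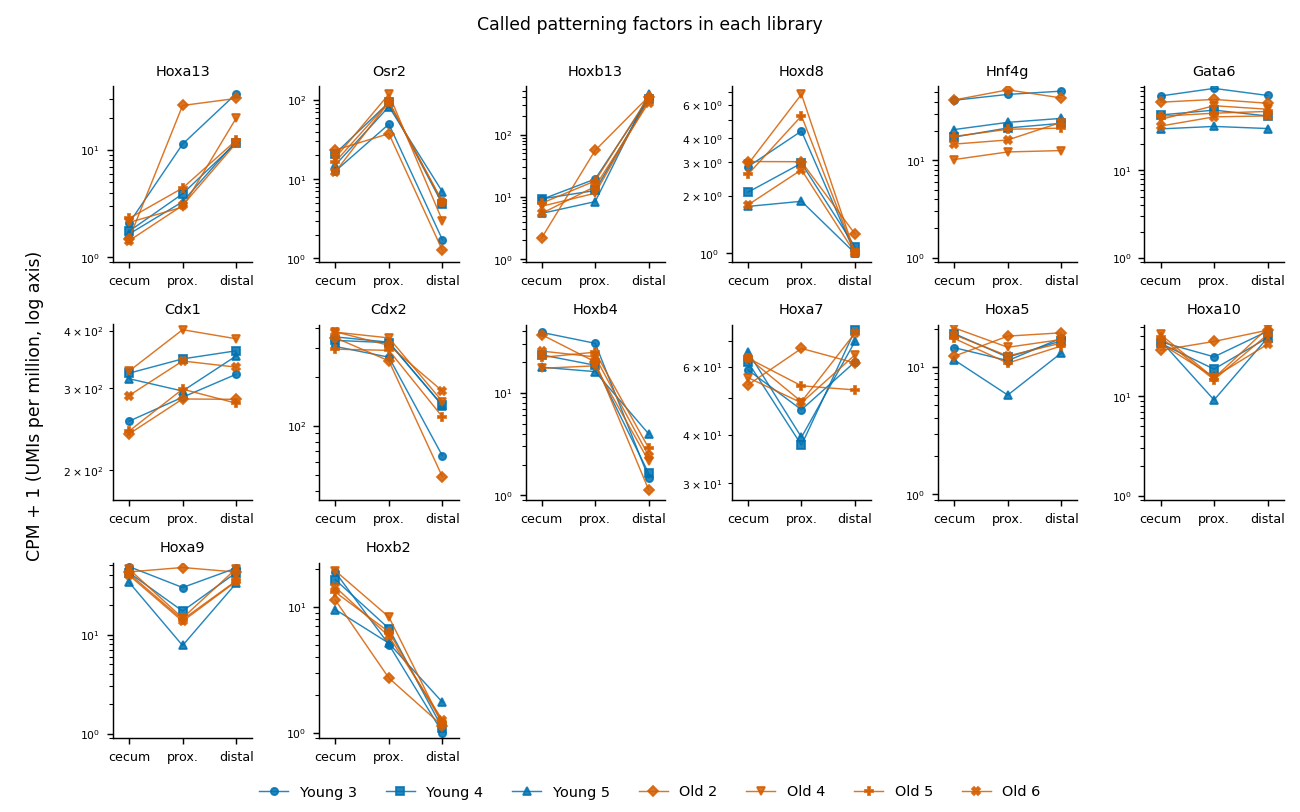
CPM + 1 (log axis) of 14 called patterning genes in the cecum, proximal and distal library of each of the 7 mice, with a line joining the libraries of a mouse (blue, young; orange, old). Hoxa13 and Hoxb13 climb and Hoxb2 falls along the 3 compartments, Osr2 peaks in the proximal colon, and Hoxa9 and Hoxa10 dip there in 6 of 7 mice.

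Transport genes moved in both directions. Of 38 tested genes of ion and water transport, 10 were higher and 14 lower (63.2% called against 29.9% of all genes; median -0.13). Slc9a3, the apical sodium-hydrogen exchanger NHE3, rose from 1.35 ± 0.870 to 5.68 ± 3.88 (2.02 ± 0.16), and Ano1, a calcium-activated chloride channel, from 2.46 ± 0.673 to 7.07 ± 2.15. Kcnq1, a potassium channel subunit of the basolateral membrane, rose from 37.1 ± 3.83 to 55.2 ± 8.23, with an antisense gene, Kcnq1ot1, in its span. Chosen after their values were seen, the water channel Aqp4 rose by 2.35 ± 0.28 and the calcium-binding protein gene S100g by 1.37 ± 0.27, while the chloride-bicarbonate exchanger Slc26a3 fell by 1.38 ± 0.23 and the carbonic anhydrases Car4 and Car1 fell by 1.20 ± 0.28 and 0.93 ± 0.25.

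For the use of short-chain fatty acids and ketone production, 6 of 24 tested genes were higher and 9 lower, with a median of -0.08 and 62.5% called beside 29.9% of all genes. Within the cell classes described further on, 11 of 22 were higher and 2 lower in colonocyte-like cells (median 0.22), and 3 of 20 higher and 12 lower in goblet-like cells (-0.32). Of all genes tested in these classes, 12.6% were higher and 12.1% lower in colonocyte-like cells, and 14.3% and 13.5% in goblet-like cells. Differences between classes were not tested. Ffar2, a receptor for acetate and propionate, was at 2.26, 8.39 and 15.9 CPM in the lowest, median and highest cecum library and 9.08, 47.0 and 54.98 in the proximal ones. The ranges overlapped slightly, every mouse was higher in the proximal colon, and the log2 difference was 2.12 ± 0.14. Slc16a1, the monocarboxylate transporter MCT1 that carries butyrate and lactate, went the other way, from 170 ± 42.3 to 73.7 ± 15.6 with no overlap (-1.24 ± 0.08). Bdh1, which converts between the ketone bodies, fell by 0.61 ± 0.06.

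Of 40 tested genes of xenobiotic metabolism, 18 were lower and 7 higher in the proximal colon (median -0.26), 62.5% called beside 29.9% of all genes. In the young pairs alone 7 were lower and 7 higher (median 0.01), and in the old pairs alone 20 were lower and 5 higher of 39. Colonocyte-like cells had 17 higher and 7 lower of 38 (0.20), whereas goblet-like cells had 1 higher and 20 lower of 31 (-0.68). Over all genes the shares higher and lower were 12.6% and 12.1% in the first class, and 14.3% and 13.5% in the second. Ces1g, a carboxylesterase, was at 248, 380 and 640 CPM in the lowest, median and highest cecum library and at 91.2, 134 and 215 in the proximal ones. No library of 1 compartment fell in the range of the other, the log2 difference was -1.51 ± 0.12, and the distal level was 15.1. Gsta3, a glutathione transferase, fell by 0.93 ± 0.06, and Mgst2, a membrane-bound one, rose by 0.47 ± 0.04. The carboxylesterase and glutathione transferase families have close copies that may share reads.

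Of 21 tested genes of bile acid and lipid handling 2 were higher and 1 lower, 14.3% called beside 29.9% of all genes. In colonocyte-like cells 7 of 18 were higher and 0 lower by edgeR, beside 12.6% and 12.1% of all genes tested there. In goblet-like cells 5 of 12 were lower and 0 higher, beside 13.5% and 14.3%. Slc10a2, Slc51a and Slc51b of this list were among the leading genes of a cluster with 52.5% of the proximal colonocyte-like cells. That cluster helped to form the class, so the colonocyte-like count is a description. Nr1h4, the bile acid receptor FXR, rose from 41.5 ± 4.18 to 59.0 ± 8.13, and Gpat3, an enzyme of triglyceride synthesis, by 0.51 ± 0.09. Dgat2, another such enzyme, was at -0.28 ± 0.09 and lost the call without Young 4 or any 1 of the 4 old mice. Cholesterol synthesis had 0 of 23 genes higher and 3 lower by edgeR, 13% called beside 29.9% of all genes, with a median of -0.04. But in the 2 pairs with many UMIs per cell 7 were higher and 0 lower (median 0.27). All genes of that fit had 1042 higher and 788 lower of 11975. Among the 3 lower in the main fit were Nsdhl (-0.34 ± 0.04) and Mvk (-0.21 ± 0.06), the latter lost without Young 3.

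Of 33 tested genes of the mucin glycosylation and fucosylation list, 18 were higher in the proximal colon and 4 lower. The share called was 66.7% beside 29.9% of all genes, with a median of 0.34. The summed level of the list was higher in 7 of 7 pairs. Not every gene of the list is an enzyme or particular to mucins. Beside B3galt5, Galnt6, which starts mucin-type chains, rose from 18.7 ± 2.57 to 32.6 ± 3.61 with all proximal libraries above all cecum ones. B4galt1, a galactosyltransferase, went from 40.2 ± 7.27 to 22.8 ± 7.01. Chosen after their values were seen, the sialyltransferases St6galnac6 and St3gal6 rose by 1.86 ± 0.17 and 1.67 ± 0.26, and the fucosyltransferase Fut2 by 1.11 ± 0.11.

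Mucus and goblet genes themselves split. Of 20 goblet markers 7 were higher and 6 lower, 65% called beside 29.9% of all genes. Tff3, the trefoil peptide of mucus, went from 4343 ± 2855 to 1496 ± 1248 and Fcgbp, a mucus-binding protein, from 685 ± 433 to 181 ± 98.1, both lower in 7 of 7 mice (-1.71 ± 0.17 and -1.80 ± 0.22). Agr2, the disulfide isomerase needed to fold mucin, went from 2586 ± 1407 to 4922 ± 2258 (0.96 ± 0.12), though with all 11 mice in the fit the value for the gene Agr2 was 0.51 and not called (adjusted p = 0.094). Muc2, the main gel-forming mucin, was chosen after its values were seen and rose with Agr2, by 1.20 ± 0.21 in 6 of 7 mice, as did Spdef, a goblet cell transcription factor, by 1.18 ± 0.21. Zg16, a mucus lectin also chosen after its values were seen, fell by 1.85 ± 0.30.

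Of 9 markers of deep crypt secretory cells, the goblet-like companions of colonic stem cells, 3 were higher and 5 lower, 88.9% called beside 29.9% of all genes. In the young pairs alone 3 were higher and 0 lower. Reg4, the best known marker of these cells, was at 4467 ± 2469 in the cecum against 1293 ± 1310.4 in the proximal colon (-2.52 ± 0.39). Its libraries ran from 358 to 7274 and from 20.4 to 3863, so the compartments overlapped, but every mouse was lower in the proximal colon. Cd177, a surface glycoprotein, was the reverse, at 9.13 ± 5.94 and 42.0 ± 20.9 (2.18 ± 0.17), with no overlap.

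In mucosal defence, 6 of 35 tested genes were higher and 11 lower, 48.6% called beside 29.9% of all genes. In the 2 pairs with many UMIs per cell 11 of 29 were higher and 7 lower, where all genes had 1042 higher and 788 lower of 11975. Tlr4, the receptor for bacterial lipopolysaccharide, was low throughout but higher in every proximal library than in any cecum library, at 3.11 ± 1.10 against 0.636 ± 0.419 (2.32 ± 0.20). Gsdmc2, a gasdermin with near-identical copies, fell by 1.24 ± 0.17. Antigen presentation and interferon response had 3 genes higher and 7 lower of 30, 33.3% called beside 29.9% of all genes. The number lower was 13 without Young 5, 14 without both Young 5 and Old 2, and 3 of 27 in the 2 pairs with many UMIs per cell. Isg15 was lower in 6 of 7 mice (-0.79 ± 0.14). H2-T23, which encodes the non-classical class I molecule Qa-1, rose by 0.34 ± 0.06, and Ifit1bl1 rose by 1.16 ± 0.22.

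For Wnt, BMP, Notch and Eph signalling 9 of 37 tested genes were higher and 4 lower (median 0.14), 35.1% called beside 29.9% of all genes. With total counts alone as the scaling 14 were higher and 4 lower, and without Young 4, 6 of 36 were higher and 2 lower. Axin2, a feedback target of Wnt, went from 15.3 ± 4.65 to 23.4 ± 6.16 and Fzd5, a Wnt receptor, from 28.0 ± 9.07 to 41.7 ± 15.2, each higher in 7 of 7 mice. Ihh, the hedgehog ligand of differentiated colonocytes, fell by 0.40 ± 0.05. Among 20 stem cell markers 8 were higher and 1 lower (45% called beside 29.9% of all genes), led by Slc12a2 (0.60 ± 0.06) and Aqp1 (0.95 ± 0.10). But Lgr5, the stem cell receptor for R-spondin, did not pass the test (15.5 and 14.2 CPM, -0.15 ± 0.08, adjusted p = 0.19).

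Of 22 cycling markers, 11 were lower and 1 higher (median -0.22), 54.5% called beside 29.9% of all genes. The number lower was 4 without Young 3, 4 without Old 5, 7 without Old 2 and 3 with total counts alone as the scaling. It was 9 in the 2 pairs with many UMIs per cell and 1 in the other 5, and 2 in the young and 2 in the old pairs alone. Rrm2, a subunit of ribonucleotide reductase, went from 53.8 ± 10.5 to 31.3 ± 8.39 (-0.83 ± 0.09). Ccnb2 and Birc5, of mitosis, fell by 0.38 ± 0.09 and 0.31 ± 0.08, and Birc5 lost the call without Young 3 (adjusted p = 0.063).

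Colonocyte markers had 5 genes higher and 5 lower of 20, 50% called beside 29.9% of all genes. The young pairs alone had 10 higher and 3 lower (median 0.43), the old pairs 3 higher and 6 lower (-0.13), and the 2 pairs with many UMIs per cell 10 higher and 6 lower of 19. Over all 7 pairs Guca2b, the precursor of uroguanylin, rose by 0.51 ± 0.06. Of 19 enteroendocrine genes 2 were higher and 1 lower, 15.8% called beside 29.9% of all genes, and 2 higher and 3 lower without Old 4. Sct (secretin) fell by 1.95 ± 0.22 from 480 ± 239 to 143 ± 86.4, and Pcsk1, a prohormone convertase, rose by 0.76 ± 0.09. Sst (somatostatin) had a value of 1.80 ± 0.41 that lost the call without Young 4 (adjusted p = 0.062) and was -0.42 in the 2 pairs with many UMIs per cell. Tuft markers gave 1 call of 14 (7.14% beside 29.9% of all genes), Ltc4s, at 0.42 ± 0.14 and an adjusted p of 0.048, lost without any 1 mouse but Young 4. In the 2 pairs with many UMIs per cell 9 of 13 tuft markers were higher and 0 lower by edgeR (median 1.11). All genes had 1042 higher and 788 lower of 11975 there. In the other 5 pairs 0 of 16 tuft markers were called, beside 1260 higher and 1101 lower of 11918 genes.

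**Figure D4:**
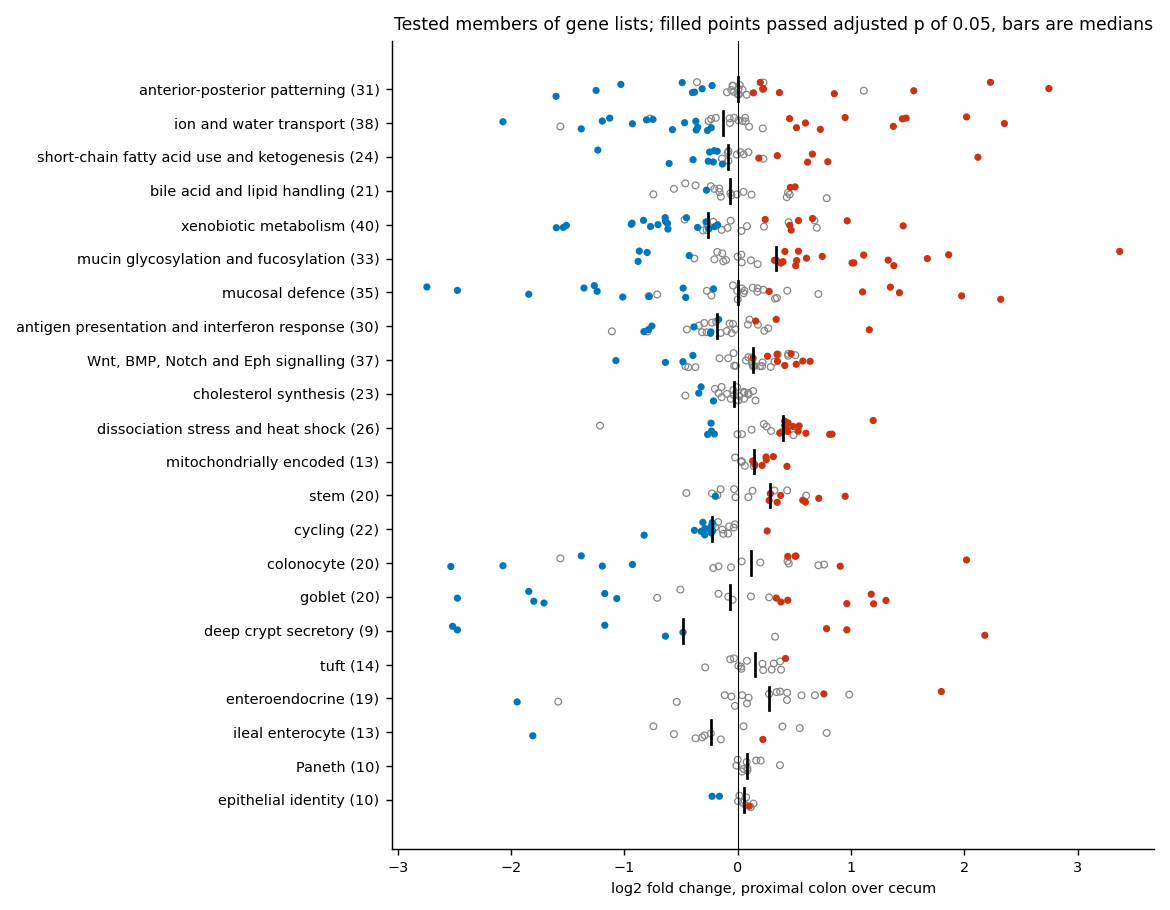
Log2 fold change (proximal colon over cecum, horizontal axis) of every tested gene of the lists with at least 9 tested genes, 1 list per row with its number of tested genes. Filled points passed an adjusted p of 0.05 (red higher, blue lower), open points did not, and bars are medians, which run from -0.48 for deep crypt secretory genes to 0.40 for dissociation stress.

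Genes of dissociation stress and heat shock, which respond when tissue is warmed and taken apart, moved with the compartment. Of 26, 14 were higher in the proximal colon and 4 lower, 69.2% called beside 29.9% of all genes, with a median of 0.40. Their summed level was 8841 to 13805 CPM in the cecum libraries, against 8275 to 14799 in the proximal ones, higher in 6 of 7 pairs. Nr4a1, an immediate early gene, rose from 13.9 ± 9.32 to 33.3 ± 26.2 and Jund by 0.41 ± 0.07, while Hspd1, a mitochondrial chaperone, fell by 0.23 ± 0.04. Of the 13 mitochondrially encoded genes 7 were higher and 0 lower by edgeR, 53.8% called beside 29.9% of all genes. Among them, mt-Nd3 rose by 0.43 ± 0.06, mt-Nd2 by 0.31 ± 0.04 and mt-Nd1 by 0.25 ± 0.04. The part of these genes in the other differences was not tested.

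Cells from outside the large-intestinal epithelium were looked for in the same way. Summed T cell markers were at 0.643, 2.66 and 19.2 CPM in the lowest, median and highest cecum library and at 1.20, 2.52 and 45.5 in the proximal ones, higher in 5 of 7 pairs. The only one of them tested was Ptprc, a surface phosphatase of all white blood cells, at 0.63 ± 0.31 and not called (adjusted p = 0.15), but called at 2.12 in the 2 pairs with many UMIs per cell and at 0.96 without Old 5. Summed stromal markers had medians of 3.64 and 6.95 in the cecum and proximal libraries, with highest values of 5.67 and 15.05, and were higher in the proximal library in 7 of 7 pairs. The defining genes were low, with Cd3e at most 0.707 in any library and the collagen gene Col1a1 at most 0.175. The part of these cells in the results was not tested. Summed myeloid markers were 59.1 to 121 in the cecum libraries, against 48.6 to 81.2 in the proximal ones, with medians of 100.7 and 65.5, of which C1qa had 62.1 and 9.29. Itgam, another myeloid gene, was at 0.846 and 1.79 (1.11 ± 0.23). Sdc1, in the plasma cell list but made by epithelium too, rose by 0.42 ± 0.06, and Pdgfrb, in the stromal list, by 0.93 ± 0.21 from 1.35 to 2.58.

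Genes of the small intestine were present in both compartments. The Paneth cell defensin Defa24 ran from 16.2 to 2190 CPM in the cecum and from 21.2 to 2690 in the proximal colon, and the ileal bile acid binder Fabp6 from 14.7 to 323 and from 31.3 to 153. Of 10 tested Paneth genes edgeR called 0. Of 13 ileal genes it called 15.4%, beside 29.9% of all genes. These were Anpep, an aminopeptidase, which fell by 1.81 ± 0.21, and the glucose carrier gene Slc5a1, which rose by 0.22 ± 0.06. A cluster with Fabp6 and Paneth defensins among its leading genes held 166 of 9543 cecum cells, up to 5.56% of Young 3, and 44 of 7651 proximal cells. A colonocyte-like cluster of 995 proximal cells, 52.5% of the colonocyte-like cells there, was also led in part by genes of ileal bile acid uptake and export, Slc10a2, Slc51a and Slc51b, and stayed in every fit. Without the cells of the first cluster alone 3551 genes were called, 1780 higher and 1771 lower.

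Within cell classes the same contrast was run on cells grouped by marker genes. Of the classes that could be named, 4 were tested, with 2414 of 9749 genes called in colonocyte-like cells (24.8%, 5 mice), 2432 of 8746 in goblet-like cells (27.8%, 6 mice), 1299 of 8418 in stem-like cells (15.4%, 5 mice) and 1325 of 8464 in cycling-like cells (15.7%, 7 mice). Without Old 6 the colonocyte-like count was 1476, and without Young 4 the stem-like count was 757. Different clusters held most of a class in the 2 compartments. Stem-like cells were 97.4% cluster 10 in the cecum and 92.5% cluster 7 in the proximal colon, the latter led by stress genes such as Atf3, Hspa1a and Hbegf. Colonocyte-like cells lay mostly in clusters 1 and 0 in the cecum and in 5 and 0 in the proximal colon, goblet-like cells in 2 and 3 against 9 and 2, and cycling-like cells in 8 against 17, 8 and 24. Genes that lead those clusters, such as Slc37a2, Plet1, C1qa, Tff3, Reg4 and Agr2, helped to form the classes, so their values within a class are descriptions and not tests. In those stem-like cells 19 of 25 stress genes were higher and 2 lower, while in goblet-like cells 2 of 24 were higher and 16 lower. All genes had 7.53% higher and 7.9% lower in stem-like cells, and 14.3% and 13.5% in goblet-like cells. Cells of the 2 pairs with many UMIs per cell mostly lay in clusters without a name, so the classes describe mainly the other 5 mice.

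The leading genes were chosen on the same cells, so their calls within classes are a description. Of the 12 on the proximal side, 5 of 6 tested were called higher in colonocyte-like cells (12.6% of all genes tested there), 9 of 9 in goblet-like (14.3%), 5 of 5 in stem-like (7.53%) and 2 of 2 in cycling-like cells (8.23%). Of the 12 on the cecum side, 11 of 11, 8 of 8, 8 of 9 and 9 of 9 were called lower, where all genes had 12.1%, 13.5%, 7.9% and 7.42%, and no gene of the 24 was called in the opposite direction. Plet1 was the gene not called in colonocyte-like cells (19.6 ± 35.8 and 11.2 ± 4.74 CPM, 0.16 ± 0.57). In goblet-like cells it went from 34.3 ± 19.8 to 1124 ± 419 (5.04 ± 0.15).

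Genes of position were called in all 4 classes. Osr2 was higher by 3.23 ± 0.10 in colonocyte-like, 2.63 ± 0.13 in goblet-like, 2.70 ± 0.17 in stem-like and 1.63 ± 0.19 in cycling-like cells. Hoxa9 was lower by -2.23 ± 0.17, -2.09 ± 0.17, -1.55 ± 0.18 and -0.81 ± 0.15 in the same order. The mice were not the same in each class. Young 3 entered only the goblet-like and cycling-like fits, and Old 2 only the cycling-like fit. Over all cells Old 2 gave 0.17 for Hoxa9 and 0.72 for Osr2, and Young 3 gave -0.77 and 1.99. The part of the choice of mice in the class values was not tested. Osr2 and Hoxa9 led no cluster of these classes, but Osr2 was among the leading genes of cluster 4, without a name and 97.1% proximal. Each of their values passed edgeR's test at an adjusted p of 0.00024 or less. The clusters were formed from the same cells, so these values too are descriptions. Differences between classes were not tested.

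Secretory genes gave a class-by-class picture. Tff3 in goblet-like cells went from 22383 ± 8691 CPM to 6753 ± 4393 (-1.89 ± 0.18), whereas in the other 3 classes its values lay between -0.11 and 0.08. Reg4 was lower in all 4, by -2.51 ± 0.46 in goblet-like cells and by -0.43 to -0.56 in the others. Agr2 was higher in all 4, by 0.48 to 1.07. Of 29 genes of the mucin glycosylation and fucosylation list tested in goblet-like cells, 22 were higher and 3 lower. All genes tested there had 14.3% higher and 13.5% lower. Ffar2 rose from 36.5 ± 8.49 to 175 ± 30.4 in goblet-like cells and from 2.02 ± 1.12 to 32.0 ± 10.96 in stem-like cells.

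**Figure D5:**
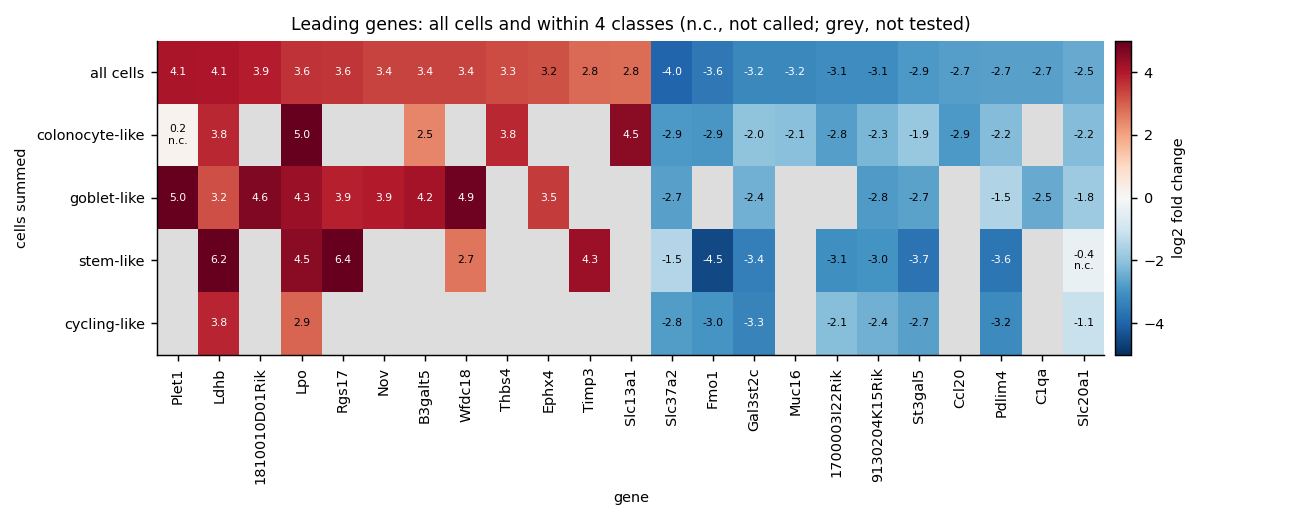
Log2 fold change (colour and number, proximal colon over cecum) of 23 leading genes in the sum of all cells and within each of the 4 cell classes, with n.c. for not called and grey for not tested. No tested square has the colour of the opposite direction, and n.c. stands at Plet1 in colonocyte-like cells and Slc20a1 in stem-like cells.

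Whether the contrast differed with age was tested as an interaction. EdgeR called 0 of 12528 genes, with 931 at an unadjusted p under 0.05, and DESeq2 called 17, Tmem252 among them. Without Old 2 edgeR called 19. By edgeR the smallest p belonged to Tmem252, a small membrane protein of unclear function, at 32.0 ± 10.4 CPM in the cecum against 71.7 ± 20.5 in the proximal colon. Its log2 difference was 1.58 in the 3 young and 0.78 in the 4 old pairs, and the age difference of -0.80 ± 0.09 had an adjusted p of 0.058 by edgeR.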

How the data were processed

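The deposited tables hold UMI counts per gene and cell, 1 table per library. Per the submitters' processing notes the authors used Cell Ranger (version not given) with the mouse build mm10, and per the labels' protocols the 10x 3′ kit was v2 or v3.1. Which mouse had which kit, strand handling and doublet removal are not given in the sources used here, and no doublets were removed here. The members and lists were chosen with earlier results of these data known.

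Counts of all cells were summed per library and tested with edgeR 4.0.16 in R 4.3.3 (filterByExpr, TMM, quasi-likelihood F test, mouse as block, Benjamini-Hochberg adjustment over all genes tested, called below 0.05). SE is the log2 difference divided by the square root of F. Levels are CPM, UMIs of a gene per 1000000 UMIs of the library, not scaled by TMM, so depth of 6534317 UMIs or more limits them only for genes at a few counts. Numbered mice pair the libraries by their titles: the deviations of the 2 libraries of a mouse correlated at 0.589 to 0.857, and each cecum library correlated best with its own mouse in 7 of 7 cases. Named genes are the 12 called genes with the largest change in each direction that moved the same way in every pair at 10 or more CPM in 1 compartment, every called patterning gene, up to 3 called genes with the smallest p of every other list, and the gene with the smallest p for age. Directions in single mice come from log2 CPM with a prior count of 2.

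Cells were clustered with scanpy 1.11.5 (2000 variable genes, 30 components, 15 neighbours, Leiden resolution 1.5, 34 clusters) without use of compartment or age, and classes were named from marker lists. A mouse entered a class with at least 20 cells in both libraries. Gene positions are from GENCODE M21 (GRCm38), in which 21532 of 21852 symbols matched, and promoters from RefSeq's GRCm38.p6. Tests were checked on simulated counts. DESeq2 1.42.0 and limma 3.58.1 served as alternatives. Per-cell measures used an exact sign-flip test over mice. Some genes that met the naming rule are not reported here.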

Additional observations from a re-analysis of the deposited data

Results flagged for a closer look

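Of 103 sets of 7 paired differences examined, 11 had 1 mouse far from the others (Dixon's criterion at 95%, which chance meets in about 1 set in 20). Old 2 was that mouse in 8, Young 5 in 2 and Young 4 in 1. In Old 2 the log2 difference of Hoxb13 was 5.35 where the other mice gave 0.455 to 1.54, that of Jund was 0.883 against 0.166 to 0.462, and that of Osr2 was 0.724 against 1.99 to 2.96. Lpo was at 1.37 in Old 2 against 3.85 to 5.24. Genes that were lower in the proximal colon of the other 6 mice were higher in Old 2: Isg15 at 0.433 against -1.02 to -0.637, Hoxa7 at 0.336 against -0.76 to -0.304, and Hoxa5 at 0.573 against -1.03 to -0.417. The difference in the median mitochondrial share was 2.06 percentage points in Old 2 and 0.372 to 1.09 in the others. In Young 5, Ephx4 was at 1.43 against 2.83 to 3.71 and Pdlim4 at -1.18 against -3.7 to -2.95. In Young 4, Itgam was at 2.15 against 0.6 to 1.12. None of the 99 named genes moved one way in every young pair and the other way in every old pair. Most of them were named for a difference called over all 7 pairs, so such a gene could hardly be among them. The count thus says nothing about age.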

How the results depend on the processing

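For the named genes, 1982 of 2174 recomputed values kept direction and side of the threshold, 167 lost the call, 11 gained it and 14 changed sign. Of the values that kept both, 99 came from a minimum of 100 cells per library. That setting held the same mice as the main fit, so its values could not change. Without the replicate block the all-cells count was 1178 (701 higher, 477 lower) and the class counts were 649 for colonocyte-like, 1258 for goblet-like, 339 for stem-like and 380 for cycling-like cells. All 3533 main calls kept their direction there, and 30 of the 99 named genes lost the call. Smaller sets of mice gave 1830 calls in the 2 pairs with many UMIs per cell, 1238 in young and 2243 in old mice. Leaving out 1 mouse gave 2692 to 3455 calls for all cells, 1476 to 2141 for colonocyte-like, 1871 to 2498 for goblet-like, 757 to 1267 for stem-like and 948 to 1321 for cycling-like cells, and 0 to 19 for the age difference, which DESeq2 put at 17. DESeq2 called 2670 genes of the main contrast, and the mean of cells scaled to their own total, tested with limma, 2875 (1855 higher, 1020 lower). Chosen after seeing the data, a fit without both Young 5 and Old 2 called 3056 genes (1444 higher, 1612 lower), of which 2706 were main calls. Epcam, near 0 throughout, changed sign to -0.0075 with no filter, -0.016 in the 5 pairs with fewer UMIs per cell, -0.035 in old mice, -0.0086 without both Young 5 and Old 2, and ran from -0.0017 to 0.026 when 1 mouse was left out (-0.00096 without Young 4). Snap25, not called, was at -0.061 with all 11 mice, -0.074 with limma, -0.34 in the 2 pairs with many UMIs per cell, -0.089 in young mice, and -0.11 to 0.19 when 1 mouse was left out (-0.046 without Old 6). In those 2 pairs Sst was at -0.42 and Hoxa5 at 0.15. Fewer mice entered the smaller fits, but not the fits with no filter, with limma or with all 11 mice. The cause of these changes was not tested.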
